A study of Mus musculus with 12 samples.

Results

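The mRNA levels of 32 mouse genes of fatty acid oxidation and ketogenesis were followed in livers with and without deletion of Nr5a2, which encodes the nuclear receptor LRH-1. The members were taken by gene symbol from tables of read counts for 24062 genes, and all 32 passed the filter on low counts that left 12015 genes to be tested. By their usual place in the cell, 20 are mitochondrial, 7 peroxisomal and 2 microsomal, and 3 act elsewhere or in several places. All 12 libraries came from livers of male mice aged 14 weeks, on a mixed 129SvEV-C57BL/6 background and homozygous for a floxed Nr5a2 allele. The knockout was made in the adult with an AAV8 vector carrying Cre, and mice given AAV8-eGFP served as controls. The promoter driving Cre was not stated in the labels. Diets were standard (SD) or high in fat (HFD), given over 6 weeks. There were 3 SD controls, 3 SD knockouts, 4 HFD controls and 2 HFD knockouts. Each library's value is given below in CPM, the count scaled to a common normalized library size.

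Fatty acids are oxidized in the liver along several routes. In mitochondria, the carnitine shuttle brings long-chain acyl groups in, a 4-step cycle shortens them, and electron-transfer flavoprotein passes the electrons to the respiratory chain. The acetyl-CoA formed is condensed to ketone bodies, which the liver exports when carbohydrate is scarce. Peroxisomes shorten very long and branched chains by a parallel set of enzymes, and microsomal CYP4A enzymes begin omega oxidation by hydroxylating the far end of the chain. Many genes of all these routes are known targets of the lipid-sensing nuclear receptor PPARalpha.

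Total counts ran from 2371167 to 3404570 in the SD libraries and from 7463792 to 10875478 in the HFD libraries. The HFD libraries also held more counts from the ribosomal RNA gene Rn45s (0.985% to 1.32%, against 0.291% to 0.460%) and from ribosomal protein genes (0.712% to 0.841%, against 0.161% to 0.206%). Diet and these differences between the libraries cannot be told apart. On SD the Nr5a2 counts were 84.3, 74.8 and 85.8 CPM (controls) and 95.3, 100.1 and 94.7 CPM (knockouts) (log2 fold change 0.24, SE 0.12, adjusted p = 0.288). On HFD they were 77.0, 74.5, 64.3 and 66.8 in the controls and 69.1 and 84.5 in the knockouts (log2 fold change 0.12, SE 0.11, adjusted p = 0.719). The gene's summed count was therefore not lower in the libraries labelled knockout. Which exons were deleted is not given in the sources used here, and a count over the whole gene does not check a deletion of part of it. "Knockout" below means the library labelled so. In whole tissue, fewer cells of a type and less RNA per cell cannot be told apart, and the labels do not state that libraries of a group came from separate animals, so p-values measure the spread between libraries. All 7 hepatocyte markers were detected in every group.

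The deletion was compared with its control on each diet. On SD, 2 of the 32 members fell and none rose by edgeR's quasi-likelihood test at a Benjamini-Hochberg adjusted p under 0.05, where 4.38% of all genes tested were called (2.94% lower and 1.44% higher). The 2 were the mitochondrial thiolase gene Acat1 and the peroxisomal thiolase gene Acaa1b. The 32 members had a median log2 fold change of -0.21, beside 0 for all genes tested, and 25 of them were on the negative side. On HFD, 0 of 32 members passed in edgeR, 8 had an unadjusted p under 0.05, and DESeq2 called 1, Etfdh (adjusted p = 0.0173). In that comparison 2.7% of all genes were called (1.66% lower and 1.04% higher), the members' median was -0.17 beside -0.01 for all genes, and 21 of 32 were negative. That median was -0.03 without HFD knockout 2 (17 negative) and -0.30 without HFD knockout 1 (27 negative), and the SD median was -0.13 without SD knockout 3. Over the mean of both diets 3 mitochondrial members fell, Acat1, Etfdh and Echs1, and none rose, where 8.36% of all genes were called (5.36% lower and 3% higher). Each of these counts, 2, 0 and 3 of 32, lies within 2 genes of the background share. When single libraries were left out, the SD count became 1 without any 1 SD control and 0 without SD knockout 2 or 3, and the HFD count became 2 without HFD control 1 (both lower). It became 1 without HFD knockout 1 (Cpt1a, lower) and 1 without HFD knockout 2 (Acot2, higher). The count over both diets became 7 without SD knockout 1, 6 without HFD knockout 1 and 5 without HFD control 1 or 3, with all of these lower except Pdk4, which was higher without HFD control 1.

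**Figure D1:**
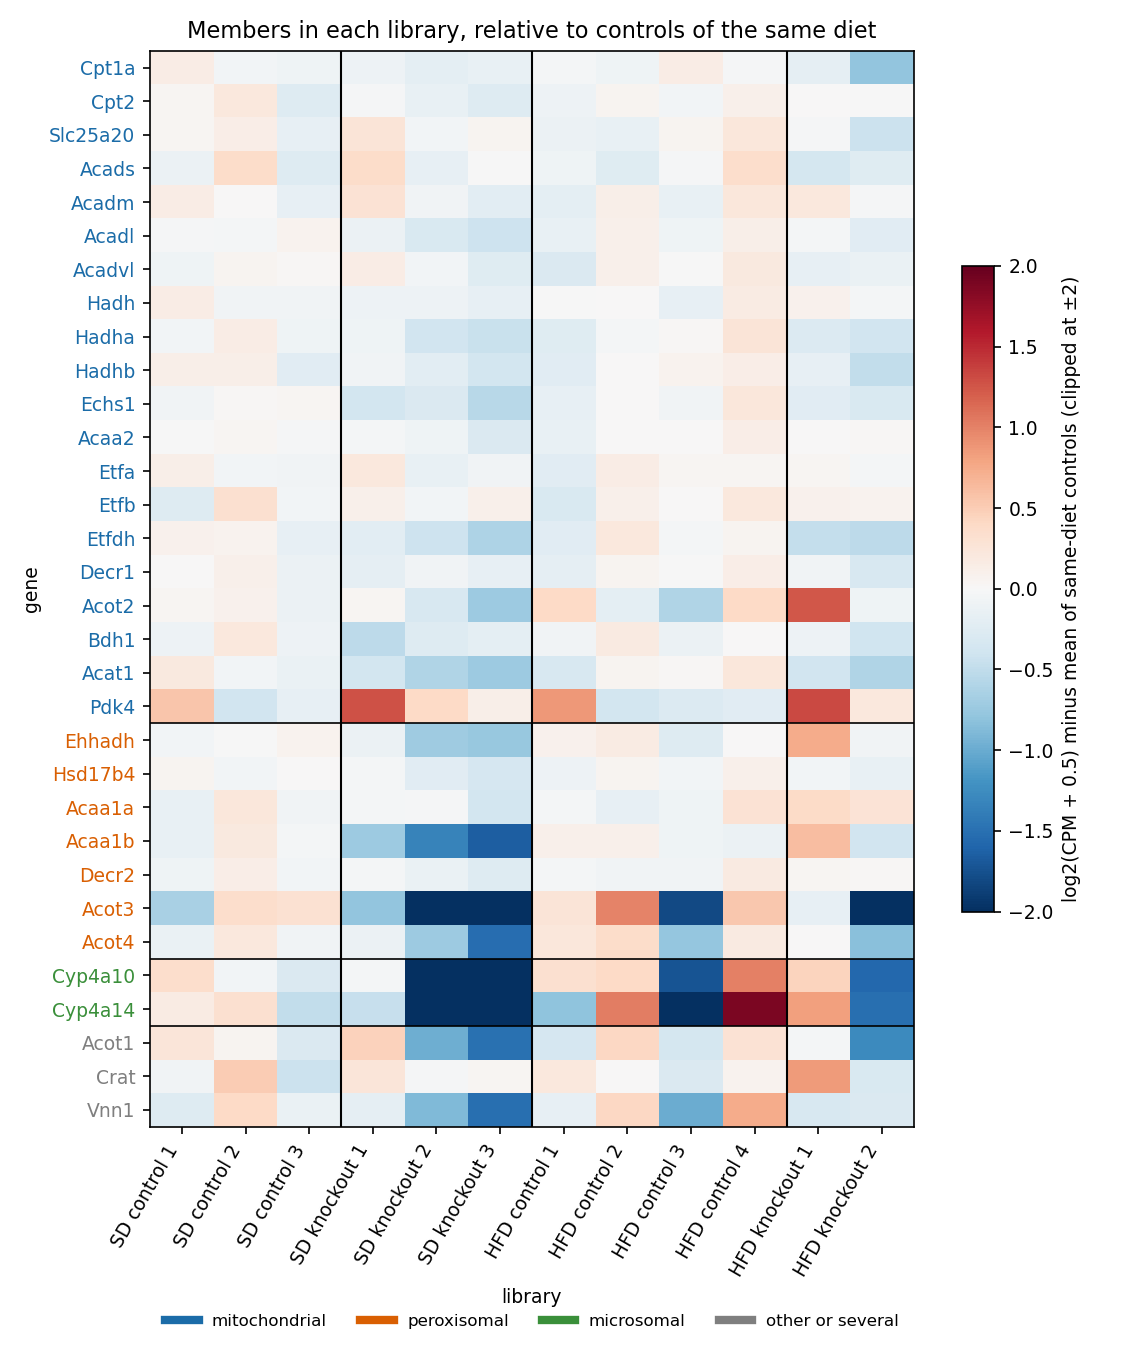
Each row is 1 of the 32 members and each column 1 of the 12 libraries, and the colour gives log2(CPM + 0.5) minus the mean of the controls on the same diet, clipped at 2 in either direction. Row names are coloured by compartment, and the deepest blue lies in the columns of SD knockouts 2 and 3, HFD control 3 and HFD knockout 2 at Cyp4a10, Cyp4a14 and Acot3.

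By compartment the values are given as a description, with no test between compartments. On SD the median log2 fold change was -0.14 for the 20 mitochondrial members, -0.50 for the 7 peroxisomal members and -1.40 for the 2 microsomal members. All 7 peroxisomal and both microsomal members were negative, as were 14 of 20 mitochondrial ones. On HFD the medians were -0.17, 0.02 and -0.58, and 3 of 7 peroxisomal members were negative. The spread between libraries of 1 group was also larger for the microsomal members than for the mitochondrial ones (medians of 1.32 and 0.17 on the log2 scale).

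Acat1 encodes the mitochondrial acetoacetyl-CoA thiolase, which condenses acetyl-CoA at the entry to ketogenesis. Its level was 895, 746 and 708 CPM among SD controls and 601, 512 and 468 in the SD knockouts. On HFD it was at 622, 799.6, 789.9 and 908 in the controls and 596 and 507 in the knockouts. Every knockout library was below every control library of its diet. It fell 1.49-fold on SD (log2 fold change -0.57, SE 0.15, adjusted p = 0.0366), while the HFD value of -0.50, SE 0.16 did not pass (adjusted p = 0.120). The mean of both diets was -0.54, SE 0.11 (adjusted p = 0.00536). The SD call was lost when any SD library but knockout 1 was left out, with an adjusted p of up to 0.168. The call on the mean of both diets held in all 17 alternatives tried.

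Etfdh encodes the membrane oxidoreductase that hands electrons from electron-transfer flavoprotein to ubiquinone. The SD controls held 504, 494 and 423 CPM of it and the SD knockouts 407, 356 and 308. The HFD controls held 355, 482, 408 and 436 and the HFD knockouts 299 and 289. Again no knockout library reached a control of its diet. The log2 fold change was -0.41, SE 0.13 on SD (adjusted p = 0.0956) and -0.52, SE 0.14 on HFD (adjusted p = 0.0658). Neither passed alone, and the mean of both diets did (-0.46, SE 0.10, adjusted p = 0.00649), also in all 17 alternatives. The 2 subunits of the flavoprotein itself, Etfa and Etfb, had mean knockout effects of 0.00, SE 0.09 and 0.04, SE 0.11, and neither passed.

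Echs1, the short-chain enoyl-CoA hydratase of the second step of the cycle, was the other call on the mean of both diets. Its levels on SD were 132, 139.5 and 142 CPM in controls and 107, 113 and 93.7 in knockouts. The HFD controls held 112, 126, 119 and 146 and the HFD knockouts 107 and 101. The groups did not overlap on either diet, though the lowest HFD control was close to the higher HFD knockout. The mean effect was -0.33, SE 0.08 (adjusted p = 0.0202). It was lost without SD control 3, SD knockout 3 or HFD knockout 2, and when all libraries were thinned to the smallest depth, with an adjusted p of up to 0.0771.

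A count of genes whose groups do not overlap uses no model. On SD 12 members were lower in all knockouts than in any control and 0 were higher, where 22.6% of all genes tested did not overlap (12.3% lower and 10.3% higher). Of the 12, 9 were mitochondrial and 3 peroxisomal. On HFD 5 members were lower without overlap and 0 higher, where 22.2% of all genes did not overlap (11.9% lower and 10.3% higher). Those 5, Cpt1a, Hadha, Echs1, Etfdh and Acat1, were all mitochondrial and were lower without overlap on both diets, which held for 4.43% of all genes. No member was higher without overlap on both diets, against 2.6% of all genes.

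Cpt1a, the outer-membrane carnitine palmitoyltransferase that controls entry to mitochondria, held 938, 809 and 791 CPM in the SD controls and 784, 737 and 763 in the SD knockouts. On HFD the controls held 846, 814, 964 and 855 and the knockouts 770.2 and 500.5. HFD knockout 2 stood apart from all other libraries at its low value. The mean effect was -0.30, SE 0.10 (adjusted p = 0.0860). Without HFD knockout 1 that library is the whole group, and the HFD effect was -0.79 (adjusted p = 0.0313, with the spread taken from the other groups alone). The other shuttle genes were Cpt2, the inner-membrane transferase, at -0.15 on SD and 0.00 on HFD, and Slc25a20, the carnitine/acylcarnitine carrier, at 0.09 and -0.22. Neither passed on either diet.

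Hadha encodes the alpha subunit of the trifunctional protein, which carries the later steps of the cycle for long chains. It held 275.7, 317.9 and 271.3 CPM in the SD controls and 271.0, 219.7 and 211.1 in the SD knockouts. On HFD the controls held 209.6, 242, 252 and 296 and the knockouts 205 and 189.8. The gap between the groups was small on both diets, and the mean effect of -0.32, SE 0.10 missed the threshold (adjusted p = 0.0551). DESeq2 called it (-0.32, adjusted p = 0.0324). Its partner Hadhb, the beta subunit, had a mean effect of -0.27, SE 0.10 (adjusted p = 0.123).

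The 4 acyl-CoA dehydrogenases, which open the cycle for short, medium, long and very long chains, did not pass in any knockout comparison. Their SD effects were 0.08 for Acads, 0.02 for Acadm, -0.27 for Acadl and -0.04 for Acadvl. The HFD effects were -0.32, 0.09, -0.13 and -0.16 in the same order. Of these, the long-chain gene Acadl was lower without overlap on SD, at 214, 187 and 174 CPM against 227, 225 and 243. The remaining mitochondrial enzymes also did not pass. Hadh, the 3-hydroxyacyl-CoA dehydrogenase for shorter chains, had a mean effect of -0.06, and Acaa2, the thiolase that ends the cycle, -0.06. Decr1, a dienoyl-CoA reductase for unsaturated chains, had -0.16. Bdh1, which interconverts the 2 main ketone bodies, held 86.3, 107 and 86.7 CPM in the SD controls and 64.3, 78.0 and 80.8 in the SD knockouts, a difference without overlap (log2 fold change -0.33, SE 0.14, adjusted p = 0.216). Pdk4, the kinase that shuts pyruvate dehydrogenase when fat is burned, was the mitochondrial member with the largest positive mean effect, 0.74, SE 0.34 (adjusted p = 0.220), from 5.86, 2.81 and 3.36 CPM in the SD controls to 9.999, 5.20 and 4.18 in the SD knockouts. Those groups overlapped.

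Among peroxisomal members, Acaa1b encodes a thiolase that ends the peroxisomal cycle and had the largest change that passed. It held 349, 443 and 378 CPM in the SD controls and 235, 153 and 124 in the SD knockouts. On HFD the controls held 392, 390.5, 342 and 337 and the knockouts 558 and 278. The SD groups were well separated, and the 2 HFD knockouts lay on either side of all HFD controls. It fell 2.28-fold on SD (log2 fold change -1.19, SE 0.24, adjusted p = 0.00911), and the HFD value was 0.19, SE 0.24 (adjusted p = 0.802). The SD call was lost without SD knockout 2 or 3, with an adjusted p of up to 0.0552. Its close relative Acaa1a shares 96.6% of 1428 aligned transcript bases with it. With the counts of both genes summed the SD effect was -0.99 (SE 0.21, adjusted p = 0.0124).

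RefSeq promoter windows on GRCm38.p6, running from 250 bases before to 50 bases after a start site, were found for 24 of the 32 members. None was found for Acaa2, Decr1, Acat1, Hsd17b4, Cyp4a10, Cyp4a14, Crat or Vnn1. The windows found were searched on both strands for CAAGGTCA and CAAGGCCA, forms of the extended half-site that LRH-1 is known to bind. The letters occurred in windows of 3 member genes, Acaa1b, Bdh1 and Acot3, and in 3.92% of all promoter windows, or 4.48% of all genes, in the RefSeq table. All 3 genes were lower without overlap in the SD knockouts, as were 12 of the 32 members and 12.3% of all genes tested. On HFD the groups overlapped for all 3. A relation between a match and the level was not tested. Acaa1b and Bdh1 are shown because their matches lie before the start site. Acot3 has 1 match, which lies 11 or 18 bases past the start site, depending on which of 2 annotated sites is used. Capitals mark the match, which lies on the strand opposite to the gene, at -183 from the start site in Acaa1b (chr9:119157239-119157306, minus strand) and at -189 in Bdh1 (chr16:31422078-31422145, plus strand).
Acaa1b: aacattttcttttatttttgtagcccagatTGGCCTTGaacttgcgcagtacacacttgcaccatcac
Bdh1: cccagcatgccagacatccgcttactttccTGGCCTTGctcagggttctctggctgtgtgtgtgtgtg
A direct repeat of AGGNCA spaced by any 1 base, a strict form of the PPARalpha element, was in 0 of 24 member genes. It was in 0.381% of all promoter windows, or 0.451% of all genes. At so small a share, 0 of 24 does not show a lack among the members. A match is a description of letters and not a bound site, and the absence of one covers these windows only.

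Ehhadh encodes the peroxisomal bifunctional enzyme. It held 262, 272 and 285 CPM in the SD controls and 251, 166 and 162 in the SD knockouts. On HFD the controls held 227, 241, 179 and 217 and the knockouts 359 and 205. SD knockout 1 lay just under the controls and the other 2 well below, without overlap, yet the effect of -0.50, SE 0.20 did not pass (adjusted p = 0.192). The HFD value was 0.38, SE 0.20 (adjusted p = 0.423). Acot3, an acyl-CoA thioesterase, held 25.4, 51.4 and 49.8 CPM in the SD controls and 23.0, 7.61 and 1.39 in the SD knockouts. Its fitted SD effect of -1.96, SE 0.79 was the largest of any member and did not pass (adjusted p = 0.200), though it did with no filter on low counts (adjusted p = 0.0263) and with only the SD groups fitted (adjusted p = 0.0326). The SD knockouts were all below the controls but spread widely among themselves. Acot3 shares 100% of 429 aligned bases with Gm49366, 92.7% of 710 with Acot5 and 93.7% of 445 with Acot6, so its counts are uncertain where reads match these equally. Summed over Acot3, Acot4 and Acot5, the SD effect was -1.19 (SE 0.48, edgeR adjusted p = 0.199).

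Acot4, another thioesterase, had an SD effect of -0.69, SE 0.35 (adjusted p = 0.332) and an HFD effect of -0.43, SE 0.32 (adjusted p = 0.621). Hsd17b4, the bifunctional enzyme for branched and very long chains, and Decr2, a peroxisomal dienoyl-CoA reductase, had SD effects of -0.20, SE 0.11 and -0.15, SE 0.11. Acaa1a had -0.14, SE 0.15 on SD and 0.32, SE 0.14 on HFD. None of these 4 passed in a knockout comparison.

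The microsomal members Cyp4a10 and Cyp4a14 encode omega hydroxylases. Cyp4a10 held 781, 594 and 500.5 CPM in the SD controls, 599, 152 and 87.8 in the SD knockouts, 549, 576, 132 and 881 in the HFD controls and 596 and 147 in the HFD knockouts. Cyp4a14 held 656, 729.9 and 417 CPM in the SD controls, 423, 103 and 48.1 in the SD knockouts, 167, 590.1, 67.0 and 1077 in the HFD controls and 511 and 102 in the HFD knockouts. Both genes were lower in SD knockouts 2 and 3 than in any SD control, while SD knockout 1 lay within the controls. HFD control 3 and HFD knockout 2 were low for both genes. The SD effects were -1.16, SE 0.66 for Cyp4a10 (adjusted p = 0.401) and -1.65, SE 0.86 for Cyp4a14 (adjusted p = 0.354). The HFD effects were -0.53, SE 0.70 (adjusted p = 0.820) and -0.63, SE 0.90 (adjusted p = 0.836). Cyp4a10 shares 96.1% of its aligned bases with Cyp4a31 and 97.2% with Cyp4a32, and reads may have been split among them. Summed over these 3 genes the SD effect was -1.01 (SE 0.57, adjusted p = 0.387).

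Members acting elsewhere were Acot1, a cytosolic acyl-CoA thioesterase, Crat, a carnitine acetyltransferase of several compartments, and Vnn1, a cell-surface pantetheinase of coenzyme A turnover. Vnn1 held 69.1, 109 and 75.4 CPM in the SD controls, 73.3, 44.4 and 28.9 in the SD knockouts, 58.4, 87.3, 32.4 and 109 in the HFD controls and 52.2 and 53.5 in the HFD knockouts. SD knockouts 2 and 3 were below the SD controls, and SD knockout 1 was within them. The SD effects were -0.78, SE 0.38 for Vnn1, -0.43, SE 0.40 for Acot1 and 0.06, SE 0.28 for Crat. None of the 3 passed in a knockout comparison, as was so for Acot2, the mitochondrial thioesterase. Acot2 had -0.31, SE 0.42 on SD and 0.67, SE 0.31 on HFD (adjusted p = 0.341). Without HFD knockout 2 its HFD effect was 1.21, which rests on HFD knockout 1 alone. Its near copy Acot1 had -0.59, SE 0.44 on HFD. With the counts of Acot1 and Acot2 summed, the HFD effect was 0.09 (SE 0.39, edgeR adjusted p = 0.958).

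The knockout effect on HFD was set against that on SD by a test of the difference. In edgeR 0 of 32 members passed, 3 had an unadjusted p under 0.05 (Acaa1b, Ehhadh and Acaa1a), and DESeq2 called 1, Acaa1b. Over all 12015 genes edgeR called 0%, 911 had an unadjusted p under 0.05, and DESeq2 called 30 genes. The difference for Acaa1b was 1.38, SE 0.33 in edgeR (adjusted p = 0.329) and 1.39 in DESeq2 (adjusted p = 0.0255). All 7 peroxisomal members had a positive difference, with a median of 0.46. The mitochondrial members had a median of 0.05, and 11 of 20 were positive. The 19 other peroxisomal genes tested, which are not members, had a median of 0.06, and 11 were positive. The positive differences were thus not shared by peroxisomal genes in general. Over all genes tested the median was -0.01, with 5867 of 12015 positive. The median over all 32 members was 0.115 (10 negative). Without HFD knockout 1 it was -0.06 (19 negative), and without HFD knockout 2 it was 0.19 (5 negative). The medians by compartment were not recomputed with libraries left out. No peroxisomal member's difference passed in edgeR.

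**Figure D2:**
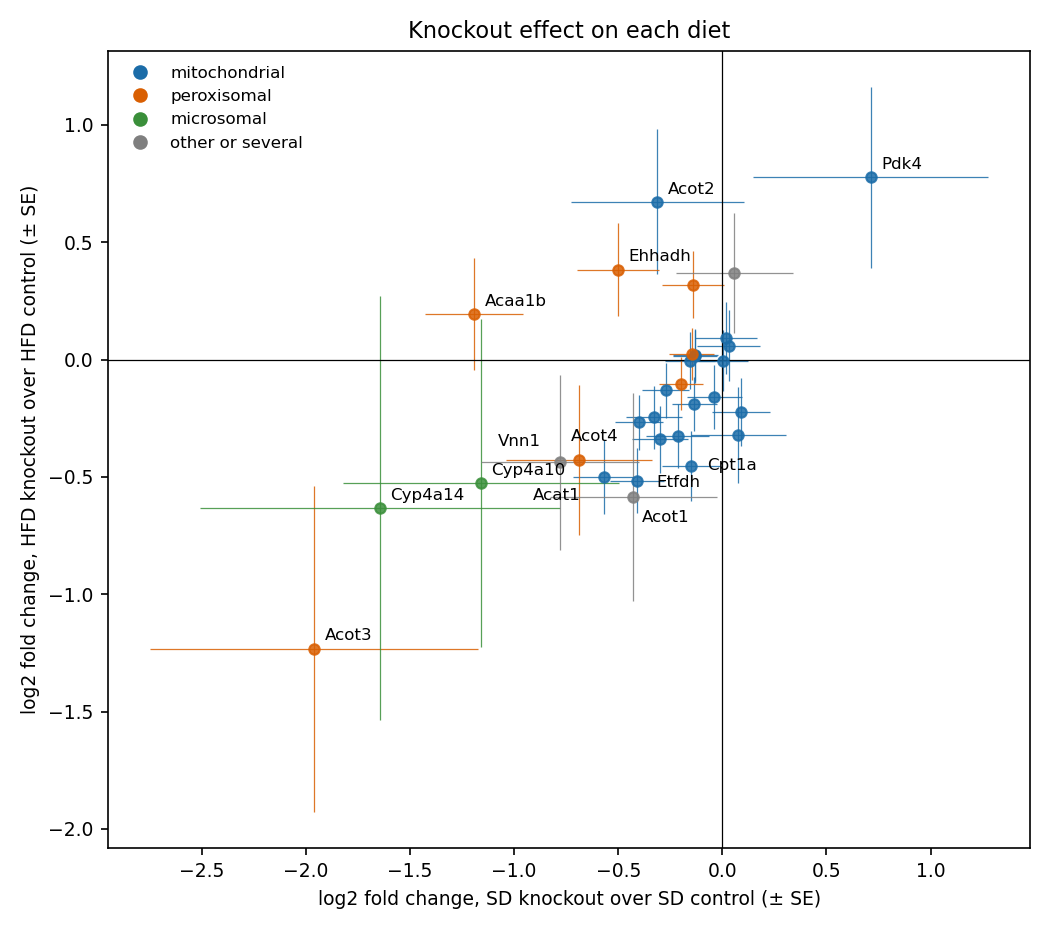
Each point is 1 member, with its log2 fold change on SD on the x axis and on HFD on the y axis, bars of ± 1 SE, and colour by compartment. Acat1 and Etfdh sit at about the same negative value on both axes, and Acaa1b is negative on SD and close to 0 on HFD.

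Marker lists of liver and other cells were read beside these values. The summed level of 5 cholangiocyte markers was 50.6 to 53.9 CPM in the SD controls and 64.7 to 197 in the SD knockouts. Most of that sum was 1 gene, Spp1, at a mean of 44.0 CPM in the SD controls and 109.9 in the SD knockouts. Sox9, at means of 5.2 and 7.5, and Epcam, at 1.90 and 2.73, were also higher in the SD knockouts. None of these genes passed in edgeR on SD. Krt7, at 0.10 and 0.11, and Krt19, at 0.735 and 0.588, were too low to be tested. The summed level of 7 hepatocyte markers overlapped on SD, at 110300 to 140400 CPM against 103000 to 154900, and on HFD was 125400 to 171600 in the knockouts against 107700 to 111100 in the controls. Alb made up most of it, and of the other markers Ttr (log2 fold change 0.64) and Hnf4a (0.07) were positive on HFD while Apoa1 (-0.27), Cps1 (-0.21), Tat (-0.33) and Fga (-0.36) were negative. Of 5 adipocyte markers Adipoq and Lep were at 0 in all libraries, and the sum of the list was 44.4 to 77.1 CPM in the HFD knockouts against 5.95 to 13.2 in the HFD controls. That difference was in Cfd, at 69.1 and 36.8 CPM against 3.08, 0.621, 0.343 and 0.390, while Lipe had means of 7.75 and 7.45. The part of these in the members' values was not tested.

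HFD libraries were next set against SD libraries, within controls and within knockouts. In controls 5 members rose and 3 fell, where 30.1% of all genes were called (16.5% higher and 13.6% lower). Acadm, Acadvl, Hadhb, Hsd17b4 and Decr2 rose, and Cpt2, Acaa1a and Acot1 fell. In knockouts 7 members rose and 1 fell, where 26.6% of all genes were called (14.9% higher and 11.7% lower). Acadm, Hadh, Hadhb, Acot2, Hsd17b4, Acaa1b and Decr2 rose and Acot1 fell. With 8 of 32 called in each, the members were at or below the background share. The medians over members were 0.02 in controls and 0.20 in knockouts, beside 0.02 and 0.03 for all genes tested. Without HFD knockout 1 the median in knockouts was 0.01, with 15 of 32 members negative. As 3 lower and 5 higher, the members without overlap between diets in controls stood against 37.2% of all genes, and the 5 lower and 10 higher in knockouts against 52.7%.

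Hadhb had the largest value. It held 49.6, 49.4 and 39.1 CPM in the SD controls, 43.7, 39.6 and 35.2 in the SD knockouts, 306, 360.2, 374 and 392 in the HFD controls and 317 and 254 in the HFD knockouts. Every HFD library was far above every SD library, and the difference was 7.80-fold in controls (log2 fold change 2.96, SE 0.14, adjusted p = 1.89e-10) and 7.23-fold in knockouts (log2 fold change 2.85, SE 0.15, adjusted p = 1.06e-09). Hadha, which encodes the other subunit of the same complex, had -0.20, SE 0.12 and -0.24, SE 0.15 and did not pass. The genes lie head to head: their RefSeq windows on GRCm38.p6, chr5:30154931-30155230 on the minus strand for Hadha and chr5:30155003-30155302 on the plus strand for Hadhb, overlap by 228 bases. Hadhb shares 99.8% of 1428 aligned bases with the processed pseudogene Gm13910 and 97.6% with Gm9108, so its counts are uncertain where reads match these equally. Whether that differed between the SD and HFD libraries was not tested.

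The other risers were smaller. Acadm held 279.6, 253 and 226 CPM in the SD controls and 326, 407, 337 and 435 in the HFD controls, without overlap (log2 fold change 0.57, SE 0.14, adjusted p = 0.00541). Decr2 held 171, 199.8 and 175, against 243, 236, 238 and 281 (0.46, SE 0.10, adjusted p = 0.00256). Hsd17b4 held 748, 694 and 722, against 874, 981, 906 and 1015 (0.39, SE 0.10, adjusted p = 0.00814). Neither gene's control groups overlapped between diets. All 3 were also higher in the knockouts on HFD, by 0.65, 0.63 and 0.48, and the Acadm call there was lost without HFD knockout 1 (adjusted p = 0.0764). Acadvl rose in controls (0.38, SE 0.12, adjusted p = 0.0267), and lost its call without SD control 1 or 3 or HFD control 2 or 4, with an adjusted p of up to 0.0930. Hadh rose in knockouts (0.40, SE 0.12, adjusted p = 0.0182), but not without SD knockout 3 or HFD knockout 1 (up to 0.106).

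Cpt2 fell in the HFD controls, from 173, 197 and 142 CPM to 111, 123, 115 and 128 without overlap (log2 fold change -0.51, SE 0.11, adjusted p = 0.00235). Acot1 held 118, 104 and 81.5 CPM in the SD controls, 138, 50.4 and 35.2 in the SD knockouts, 22.8, 38.6, 22.4 and 35.2 in the HFD controls and 28.2 and 11.7 in the HFD knockouts. All HFD libraries were below all SD libraries of the same genotype, at -1.76, SE 0.37 in controls (adjusted p = 0.00197) and -1.92, SE 0.48 in knockouts (adjusted p = 0.00772). The knockout call was lost without SD knockout 1 or HFD knockout 2 (adjusted p of up to 0.0921), where the log2 fold change shrank to as little as -1.09. Acaa1a fell in controls (-0.41, SE 0.13, adjusted p = 0.0292), and lost its call without any of SD control 2 or 3 and HFD control 1, 2 or 3, with an adjusted p of up to 0.167.

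Acot2 and Acaa1b rose in the HFD knockouts against the SD knockouts. Acot2 held 14.0, 10.8 and 8.01 CPM in the SD knockouts and 50.3 and 19.6 in the HFD knockouts (1.66, SE 0.38, adjusted p = 0.00468). Acaa1b had 1.29, SE 0.25 (adjusted p = 0.00152), from the same SD knockouts in which it was low against the SD controls, so the comparisons share those libraries. Both calls rested on HFD knockout 1, without which the values were 0.85 for Acot2 (adjusted p = 0.125) and 0.72 for Acaa1b (adjusted p = 0.0599). Acot1 and Acot2 share 95.1% of 1274 aligned bases. With their counts summed, the diet effect was -1.15 in controls (SE 0.35, adjusted p = 0.0202) and -0.65 in knockouts (SE 0.43, adjusted p = 0.286).

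**Figure D3:**
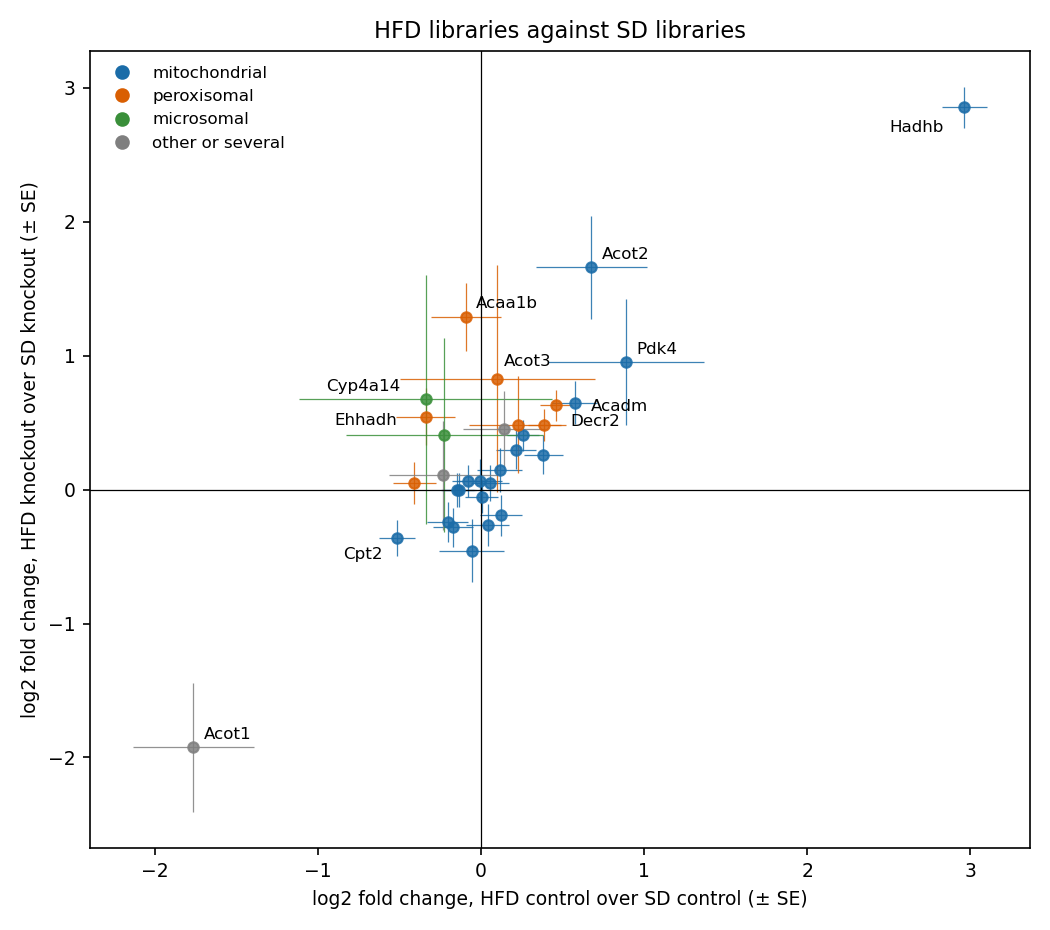
Each point is 1 member, with the log2 fold change of HFD over SD in controls on the x axis and in knockouts on the y axis, bars of ± 1 SE, and colour by compartment. Hadhb stands alone near 3 on both axes, and Acot1 lies lowest on both.

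The members differed strongly in spread between libraries of 1 group. The SD of log2(CPM + 0.5) about the group means, with 8 residual degrees of freedom, was 1.49 for Cyp4a14, 1.34 for Acot3 and 1.15 for Cyp4a10, which were at the 99.7th to 99.9th percentile of the 8946 genes tested with a mean of at least 5 CPM. Acot1, Vnn1, Pdk4, Acot4 and Acot2 followed at 0.66 to 0.49. Acaa2 and Hsd17b4 were the steadiest, at 0.10. The median was 0.17 for the mitochondrial members, 0.29 for the peroxisomal and 1.32 for the microsomal, beside 0.20 for all those genes. The members also ranked libraries alike: SD knockout 1 was the highest of its group for 27 of 32 members and SD knockout 3 the lowest for 24. HFD knockout 1 was the higher for 28 of 32, and HFD control 4 was the highest for 20. These orders were not counted over all genes, so they are not shown to be particular to the members.

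**Figure D4:**
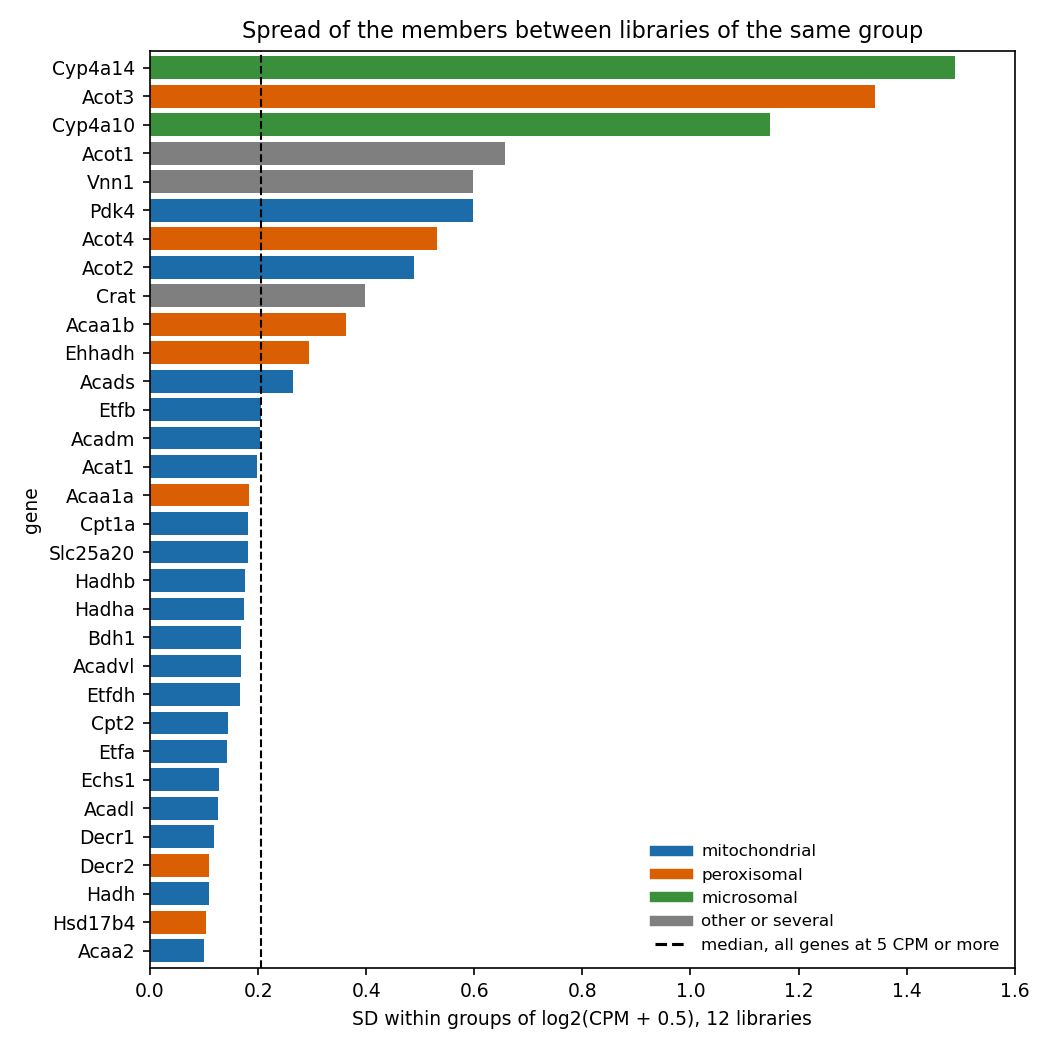
Bars give each member's SD of log2(CPM + 0.5) about its group means over 12 libraries, coloured by compartment, with a dashed line at the median of all genes at 5 CPM or more. Cyp4a14, Acot3 and Cyp4a10 reach over 1, and most mitochondrial members lie at or below the line.

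Deviations from the group means were compared with those of Cyp4a10, chosen after its values were seen, for the other 31 members over 12 libraries, with an exact permutation test of libraries within groups (1728 arrangements, two-sided, Benjamini-Hochberg over 31 relations). Cyp4a14 followed it with Pearson's r = 0.93 (exact p = 0.00116, adjusted p = 0.0359) and Spearman's rho = 0.92 (adjusted p = 0.0359). Acot1 had r = 0.87 (exact p = 0.00289, adjusted p = 0.0449) and rho = 0.93 (adjusted p = 0.0359). Without the 2 libraries farthest from the median, HFD control 3 and SD knockout 1, r was 0.88 for Cyp4a14 and 0.90 for Acot1. The group means were not recomputed for this. The 2 libraries therefore still shaped the deviations of the others, and these values do not show the relation free of them. The other 29 members did not pass, among them Acot4 at r = 0.92 (exact permutation, adjusted p = 0.0692), Acot3 at 0.89 (0.0695) and Acot2 at 0.87 (0.0538). Across all genes at 5 CPM or more the median r with Cyp4a10 was 0.01.

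Levels between genes were compared per kilobase of transcript in the SD controls. The length was that of the longest coding GENCODE transcript with a curated RefSeq match, and the order depends on this choice. Acaa2 led at 609 ± 13.1 CPM per kb (SD, n = 3), followed by Etfa at 554 ± 40.0, and their library ranges touched only in that the lowest Acaa2 value of 598 was below the highest Etfa value of 600. Cyp4a10 (296 ± 67.6), Hsd17b4 (269 ± 10), Cyp4a14 (241 ± 65.5), Acaa1b (231 ± 28.7) and Acat1 (230 ± 29.1) came next and overlapped as neighbours. Etfdh (199 ± 18.6) and Cpt1a (196 ± 18.5) followed. At the low end were Acot4 (6.84 ± 0.885), Acot2 (6.23 ± 0.471) and Pdk4 (1.15 ± 0.466). Acot4 had a mean of 42.4 CPM over a transcript of 6.203 kb, and Acot3 had 42.2 CPM over 3.431 kb. The subunits of the trifunctional protein were at 71.8 ± 6.40 for Hadha and 22.5 ± 2.95 for Hadhb in the SD controls, and at 62.3 ± 8.93 and 175 ± 18.2 (SD, n = 4) in the HFD controls.

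Further genes of the same pathways were counted from lists of non-members. Over all genes tested, 4.38% were called in the knockout comparison on SD, 2.7% on HFD and 8.36% over both diets. Of 8 other ketone body genes, 0 passed in edgeR in the knockout comparison on SD (2 with an unadjusted p under 0.05), on HFD (1) or over both (3). Of 19 regulators of oxidation, 3 fell and 1 rose on SD, 0 passed on HFD, and 3 fell over both diets. Lpin1 rose on SD (1.46, SE 0.36, adjusted p = 0.0295) and had 0.02, SE 0.37 on HFD. Its SD call was lost when any SD library but control 1 was left out. Pdk1 fell over both diets (-0.575, SE 0.11, adjusted p = 0.00312), also in all 17 alternatives. Ppara, the gene of PPARalpha, held 642, 490.3 and 586 CPM in the SD controls and 421, 422 and 348 in the SD knockouts, without overlap, and fell over both diets (-0.43, SE 0.09, adjusted p = 0.00804). That call was lost without HFD knockout 2 (adjusted p = 0.0568). Mlycd, a malonyl-CoA decarboxylase whose substrate inhibits CPT1, fell over both diets (-0.54, SE 0.10, adjusted p = 0.00398).

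Of 19 other peroxisomal genes tested, 1 rose and 1 fell on SD, and 2 fell on HFD. Hacl1, the lyase of alpha oxidation, fell on HFD from 238, 362, 263 and 443 CPM to 169 and 137 (-1.09, SE 0.24, adjusted p = 0.0215). The groups did not overlap. The call was lost without HFD control 2 or either HFD knockout and with only the HFD groups fitted (adjusted p of up to 0.168), while the call over both diets (-0.95, SE 0.16, adjusted p = 0.00167) held in 17 of 17 alternatives. Of 10 other omega oxidation genes, 1 fell on SD, 2 fell on HFD and 2 fell over both diets. Cyp4a12b, of the same family as the microsomal members, held 32.5, 18.2, 106 and 34.7 CPM in the HFD controls and 5.70 and 8.70 in the HFD knockouts, without overlap (-2.71, SE 0.60, adjusted p = 0.0216). That call was lost without either HFD knockout, after thinning and with only the HFD groups fitted (adjusted p of up to 0.264), while the call over both diets (-1.95, SE 0.38, adjusted p = 0.00422) held in 17 of 17 alternatives. Cyp4a12a, of the same family, had 0.015, SE 0.28 on HFD and 0.045, SE 0.19 over both diets and did not pass. Near copies were searched for members only, and a split of reads between Cyp4a12a and Cyp4a12b was not tested. Cyp4f14, a fatty acid hydroxylase of another CYP4 branch, fell on both diets. It held 96.8, 114 and 114 CPM in the SD controls and 35.7, 37.2 and 25.4 in the SD knockouts. On HFD the controls held 77.7, 179.5, 157 and 154 and the knockouts 42.2 and 46.8. No knockout library reached a control, and the mean effect was -1.70, SE 0.18 (adjusted p = 2.94e-05). Its call on HFD was lost without HFD knockout 1 (adjusted p = 0.0512). Of 14 other mitochondrial genes, 1 fell on SD and 0 passed on HFD, and of 11 fatty acid activation genes tested 1 fell on SD and 1 rose on HFD. Of 9 other PPARalpha target genes tested, 0 passed on SD (3 with an unadjusted p under 0.05) or on HFD (1), and 1 fell over both diets.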

How the data were processed

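Liver RNA was amplified and prepared with the Nugen Ovation RNA-Seq System V2, per the labels' protocols. The submitters' processing notes name TopHat2 2.1.0, HTSeq, DESeq2 1.14.1 and mm9. The deposited files hold raw counts per gene symbol for each library, made by the authors. Strand and multi-mapping settings: not given in the sources used here. Counts were fitted with edgeR 4.0.16 (R 4.3.3, quasi-likelihood test, TMM normalization, filterByExpr with a minimum count of 10) as 4 group means over all 12 libraries, with p-values adjusted by Benjamini-Hochberg over 12015 genes and a threshold of 0.05. SE is that of the log2 fold change. Library totals ranged from 2371167 to 10875478 counts. Groups came from titles and diet labels. The self-test ran on simulated counts.

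The members and lists were chosen with earlier results of these data known. Members called in a knockout comparison, and up to 4 of a compartment with the smallest p in each comparison, are given by library. Of other lists, up to 3 genes by p may be named, and Cyp4a12a was added beside Cyp4a12b. As alternatives the fit was repeated without the filter, with RLE normalization, with DESeq2 1.42.0, after thinning to the smallest library, with a replicate block, on only the groups compared, and with each library left out (a group left with 1 library is assumed to vary like the others). Sums over near-identical genes were added after seeing the data. Transcripts were aligned to find near copies of at least 200 bases and 90% identity, which 11 of 32 members have. Sequences are from RefSeq on GRCm38.p6, a build other than that of the counts, and no coordinate was carried between them.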

Additional observations from a re-analysis of the deposited data

Results flagged for a closer look

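In the HFD controls, the 1 group with enough libraries to look for a library that stands apart, 32 members were examined and 2 had such a library by Dixon's criterion. Chance gives about 1 in 20. Pdk4 was highest in HFD control 1, at 12.7 CPM, against 5.09 to 5.72 in the other HFD controls. Decr2 was highest in HFD control 4, at 281.4 CPM, against 236.5 to 243.1 in the others.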

How the results depend on the processing

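The number of members called in the knockout comparison on SD was 2, and leaving out single libraries gave 0 to 2, with 0 without SD knockout 2 or 3. On HFD it was 0, became 1 with DESeq2 and 1 with no filter (Etfdh in both), and ranged from 0 to 2 when libraries were left out. Over both diets it was 3, became 8 with no filter and 7 with the replicate block, and ranged from 2 to 7 when libraries were left out (7 without SD knockout 1, 6 without HFD knockout 1). For the difference between diets it was 0, became 1 with DESeq2 and 1 with no filter (Acaa1b in both), and stayed at 0 to 0 when libraries were left out. In controls the diet count was 8 and ranged from 6 to 8, and in knockouts 8 and 5 to 9, with 5 without HFD knockout 1. The cause of these shifts was not tested. No value changed sign while called. With the replicate block, 3 members were called on SD, 0 on HFD, 0 for the difference, 8 for diet in controls and 10 in knockouts. It added Cyp4a10 on SD (-1.64, adjusted p = 0.0319) and Acaa1b, Acot3, Acot4 and Cyp4a10 (-1.20, adjusted p = 0.0344) over both diets, added Pdk4 for diet in controls and Pdk4 and Cpt2 in knockouts, and lost Acadvl in controls. Same-numbered SD libraries had correlations of their deviations of 0.10, 0.13 and -0.05, and different-numbered ones from -0.136 to 0.035. SD controls 1 and 2 correlated best with their own number, and SD control 3 did not. Same-numbered HFD libraries had 0.17 and 0.04. With 2 HFD knockouts the deviations mirror each other, so the HFD values cannot judge pairing. The numbers were not taken as pairs in the main fit, and these values do not settle whether they are. Among single genes, 101 recomputed values no longer passed and 49 newly passed. The SD libraries are the shallower ones, and a group of 2 HFD knockouts limits every comparison that uses it.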
